A study of Mus musculus with 6 samples.

Results

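AMP-activated protein kinase (AMPK) was examined here through the genes of its subunits and of the kinases that switch it on, in quadriceps muscle of mice that differ in the glucocorticoid receptor gene, Nr3c1. The set held the catalytic α genes Prkaa1 and Prkaa2, the β genes Prkab1 and Prkab2, the γ genes Prkag1, Prkag2 and Prkag3, and the upstream kinases Stk11 (LKB1) and Camkk2. Its members were chosen by gene symbol, as a pathway, with earlier results of these data known. It covered 9 of the 33641 gene symbols and 55 of the 105129 transcript rows in the expression table, and 4 of the 55 rows were at 0 in all 6 libraries. Each row gives TPM, a length-corrected abundance that sums to 1000000 in each library. A gene value is the sum over its rows.

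Poly-A selected, stranded RNA-seq libraries came from 6 male mice of 4 months, littermates of heterozygous parents, with muscle frozen at about ZT4 (4 hours after lights on). In 3 mice both Nr3c1 alleles were the rs6190 allele, a mouse copy of a human receptor variant (Homo, called homozygous below). The other 3 carried the reference allele on both chromosomes (WT). No drug or exercise treatment is named in the labels, and the allele is carried in the whole animal, so muscle fibres were not the sole cells that carried it. The comparison asks which transcripts of the AMPK system differ with the receptor allele.

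AMPK is a heterotrimer of a catalytic α, a scaffolding β and a nucleotide-binding γ subunit. It responds to a rising ratio of AMP and ADP to ATP, and it is active when a threonine in the activation loop of the α subunit is phosphorylated, by LKB1 under energy stress or by CaMKK2 when calcium rises. In skeletal muscle the α2, β2 and γ3 forms are known as the muscle-enriched set, and γ3 is known from fast glycolytic fibres. Active AMPK favours glucose uptake, fatty acid oxidation and autophagy, and it restrains lipid and protein synthesis.

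The step that joins the upstream kinases to AMPK is encoded by a short stretch in each catalytic gene, shown because both kinases act on the same residue of both α subunits. The stretches below are coding bases of 63 nt from GENCODE M21 transcripts on GRCm38, written 5′ to 3′, with the codon of the activating threonine in capitals. They lie at chr15:5169937-5169999 on the plus strand (Prkaa1, codon 183 of 559) and chr4:105049351-105049413 on the minus strand (Prkaa2, codon 172 of 552). Each stretch lies within 1 coding exon.
Prkaa1: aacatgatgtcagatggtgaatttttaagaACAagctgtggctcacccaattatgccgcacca
Prkaa2: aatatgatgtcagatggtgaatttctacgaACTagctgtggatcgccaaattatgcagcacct
Of the 63 bases, 54 were identical and 9 differed. Prkaa1 and Prkaa2 had 1 transcript row each, so no splitting among isoforms enters their values.

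The libraries themselves differed within the groups. Estimated depth was 15.8 to 21.7 M fragments (M, 1000000) per library. The defining skeletal muscle markers, Acta1 among them, were abundant in every library, with a summed level of 44726 to 49033 TPM in homozygous muscle, against 40884 to 63373 TPM in WT muscle. The 11 slow-fibre markers summed to 2195 to 9863 TPM in homozygous muscle, against 265 to 2045 TPM in WT muscle, with the lowest value in WT replicate 3 and the highest in homozygous replicate 2. The 12 fast-fibre markers together made up 26.4% of TPM in WT replicate 3 and 10.8% to 14.9% in the other libraries. Of these markers, Myh1 and Myh2 went the other way, lowest in WT replicate 3 at 239 and 122 TPM. Both were higher in all homozygous than in all WT libraries, while the other fast-fibre markers were highest in WT replicate 3. Mitochondrial transcripts made up 14.3% in WT replicate 3 and 20.9% to 33.9% in the others. The 4 smooth muscle markers summed to 36.8 to 37.4 TPM in homozygous muscle, against 22.8 to 33.4 TPM in WT muscle. The smooth muscle and slow-fibre sums were higher in all homozygous libraries than in all WT libraries, and the summed blood, adipocyte, immune and endothelial markers overlapped. Taken singly, 7 of the 11 slow-fibre markers were higher without overlap (background 34.7% of genes tested), while Myl3, Tnnt1, Csrp3 and Myh7b overlapped. Among the smooth muscle markers Myh11 and Acta2 were higher without overlap, while Cnn1 and Tagln overlapped. Nr3c1 was at 20.01, 19.7 and 19.5 TPM in homozygous replicates 1, 2 and 3 and at 11.5, 14.8 and 8.07 TPM in WT replicates 1, 2 and 3, and its log2 fold change was 0.77 (SE 0.20, limma adjusted p = 0.168). The median log2 fold change over the 11099 genes tested was 0.26, so values above 0 were the common case. This median was 0.15 for genes under 1500 nt and 0.37 for genes of 5000 nt or more. For WT replicate 3 against WT replicates 1 and 2, the median difference was 0.058 and -0.43 in these bins. For the homozygous libraries against WT replicates 1 and 2 it was 0.16 and 0.23, so the length trend came largely from WT replicate 3. The part of fibre and cell composition, library composition and transcript length in the results below was not tested beyond the values given with them. In bulk muscle, fewer cells of a type and less RNA per cell cannot be told apart.

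Levels of the AMPK genes spanned a wide range, with the muscle-enriched β2 and γ3 genes and Stk11 at the top. By the mean over libraries the order was Prkab2, Stk11, Prkag3, Prkag1, Prkaa2, Prkab1, Prkag2, Prkaa1 and Camkk2. The first 3 lay between 64.6 and 114 TPM and their ranges overlapped. Prkag1 and Prkaa2 lay between 16.2 and 40.5 TPM and overlapped each other, as did Prkab1 and Prkag2 between 3.55 and 7.91 TPM. Ranges stood apart between Prkag3 and Prkag1, between Prkaa2 and Prkab1, and between Prkag2 and Prkaa1, where the gene named first was the higher in 6 of 6 libraries. Camkk2 was lowest, below Prkaa1 within 6 of 6 libraries although their ranges over libraries overlapped.

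**Figure D1:**
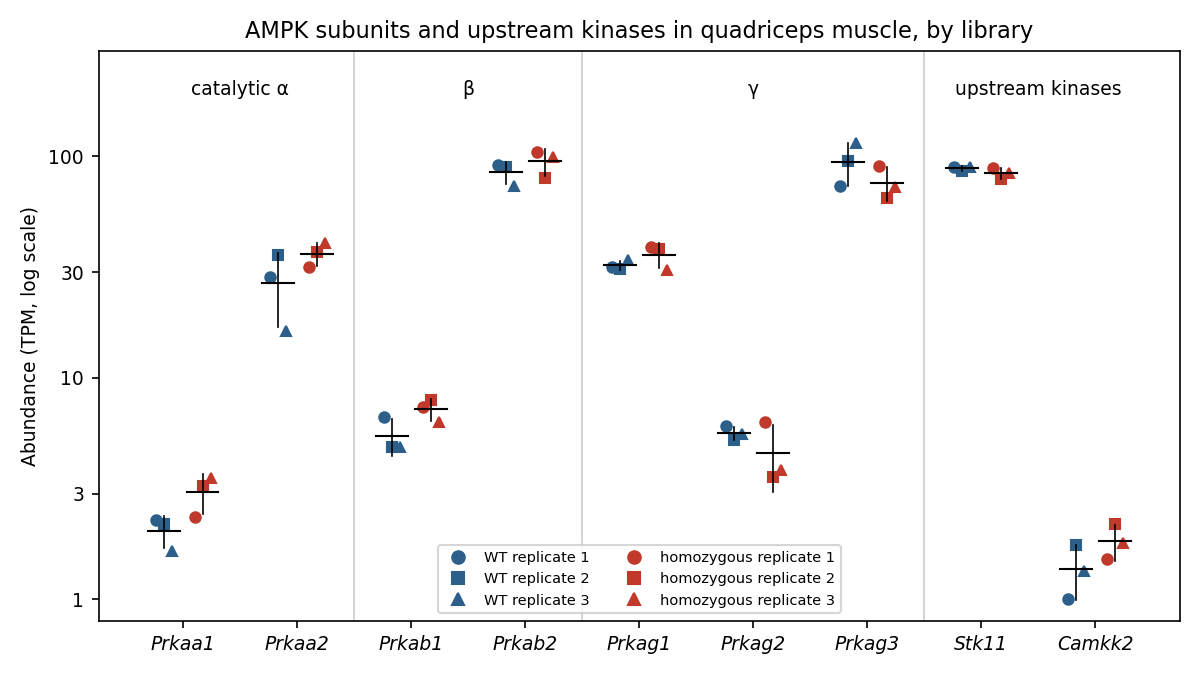
Abundance of the 9 AMPK genes in each library, in TPM on a log axis; blue points are WT and red points homozygous libraries, marker shapes give the replicate number, horizontal lines are group means and vertical lines ± 1 SD (n = 3). Prkab2, Stk11 and Prkag3 lie between 64.6 and 114 TPM, Camkk2 lies between 1.01 and 2.18 TPM, and the groups are apart only for Prkaa1 among these 9 genes.

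No AMPK gene passed the test for a difference between genotypes. Of the 9 genes, 0 passed an adjusted p under 0.05 in limma (background 0% of 11099 genes) and 0 had an unadjusted p under 0.05 (background 24.3%). The groups did not overlap for 1 of 9, Prkaa1, which was higher in the homozygous libraries (background 34.7% higher, 0.73% lower and 35.5% in both directions). Smaller groups overlap less readily. Leaving out homozygous replicate 1 gave 3 higher genes without overlap, Camkk2, Prkaa1 and Prkaa2 (background 46.9%), and 3 lower, Prkag2, Prkag3 and Stk11 (background 3.05%). Counts in both directions were 2 and 3 without homozygous replicates 2 and 3 (background 39.8% and 43.3%) and 3, 4 and 1 without WT replicates 1, 2 and 3 (background 47.3%, 49.5% and 44.7%). In these counts Prkag3 without WT replicate 1 and Stk11 without WT replicate 2 were lower, and the others were higher. The median log2 fold change of the 9 genes was 0.16, against 0.26 over all genes tested. Of the 9, 6 had a value above 0, against 9526 of all 11099 genes tested, and 3 had a value above the median of all genes.

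Among the catalytic subunits, Prkaa2 (α2) was the main form. Its levels were 31.7, 36.9 and 40.5 TPM in homozygous replicates 1, 2 and 3, against 28.6, 35.7 and 16.2 TPM in WT replicates 1, 2 and 3. WT replicate 3 was the low library and WT replicate 2 lay inside the homozygous range. Group means were 36.4 ± 4.40 and 26.8 ± 9.84 TPM (SD over 3 mice). In limma the log2 fold change was 0.49, with a 95% interval of -0.12 to 1.10 (SE 0.26, adjusted p = 0.269). Without WT replicate 3 the fold change was 0.18 and without WT replicate 2 it was 0.72 (limma adjusted p = 0.486 and 0.172). Prkaa1 (α1), the form known from most other tissues, was about an order of magnitude lower. It was at 2.35, 3.25 and 3.54 TPM in homozygous muscle, against 2.27, 2.19 and 1.65 TPM in WT muscle. Here the lowest homozygous library stood just above the highest WT library. Its log2 fold change was 0.41 (SE 0.18, limma adjusted p = 0.215). It was 0.12 after quantile normalization, 0.11 after median centring and 0.05 after removal of a transcript length trend, and the groups then overlapped.

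The balance between the catalytic genes differed between the groups by less than the spread between libraries. Prkaa2 made up 93.1%, 91.9% and 92.0% of catalytic TPM in the homozygous and 92.6%, 94.2% and 90.8% in the WT libraries. Group means were 92.3% ± 0.673 and 92.6% ± 1.72 (SD, n = 3 each), and the two-sided exact permutation p was 0.9. With 3 libraries against 3 the smallest p this exact test can give is 0.1. It was run on 28 shares and ratios, and the smallest value after Benjamini-Hochberg adjustment over them was 0.467. A share within a library does not depend on a factor that scales the whole library. A trend with transcript length in a library, as in WT replicate 3, can still change it.

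Of the β subunits, Prkab2 (β2) was the most abundant of the 9 genes on the mean. It was at 105.0, 80.0 and 99.9 TPM in homozygous muscle, against 91.6, 89.2 and 73.7 TPM in WT muscle, so the groups overlapped. The log2 fold change was 0.16 (SE 0.16, limma adjusted p = 0.508) and was -0.03 after quantile normalization. Prkab1 (β1) was at 7.40, 7.91 and 6.31 TPM in homozygous muscle, against 6.64, 4.85 and 4.86 TPM in WT muscle. WT replicate 1 lay between the homozygous values. Its log2 fold change was 0.35 (SE 0.17, limma adjusted p = 0.232). Prkab2 made up 92.8% ± 1.61 of β subunit TPM in the homozygous and 94.0% ± 0.815 in the WT libraries (SD, n = 3 each, two-sided exact permutation p = 0.5).

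Among the γ subunits, the fast-fibre form Prkag3 (γ3) was the most abundant. It was at 90.4, 64.6 and 72.9 TPM in homozygous muscle, against 73.2, 95.3 and 114 TPM in WT muscle. The highest value came from WT replicate 3, the library with the largest summed share of fast-fibre markers, though not of Myh1 and Myh2. The lowest came from homozygous replicate 2, the library with the most slow-fibre RNA. Group means were 76.0 ± 13.2 and 94.3 ± 20.6 TPM (SD over 3 mice). The log2 fold change was -0.30, with a 95% interval of -0.75 to 0.16 (SE 0.20, limma adjusted p = 0.344). With the slow-fibre score as a covariate the fold change was 0.08 (limma adjusted p = 0.920). That score was 6.84, 9.05 and 7.04 in homozygous replicates 1, 2 and 3, against 6.73, 6.03 and 3.67 in WT replicates 1, 2 and 3. Since the score itself was apart between the genotypes, the covariate fit cannot tell fibre type from genotype. In the fit on genotype alone, the fold change was -0.15 without WT replicate 3. Without WT replicate 1 it was -0.47 with the groups apart.

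Prkag1 (γ1), a widely expressed form, was at 38.8, 38.2 and 30.6 TPM in homozygous muscle, against 31.8, 31.0 and 33.9 TPM in WT muscle. Homozygous replicate 3 was below all WT libraries and the other two were above them. The log2 fold change was 0.14 (SE 0.14, limma adjusted p = 0.494). Prkag2 (γ2), the form known for its role in heart, was at 6.32, 3.55 and 3.85 TPM in homozygous muscle, against 6.04, 5.23 and 5.58 TPM in WT muscle. Homozygous replicate 1 was the highest of the 6 libraries and the other homozygous libraries were the lowest. The log2 fold change was -0.28 (SE 0.21, limma adjusted p = 0.388). It was -0.49 without homozygous replicate 1, with the groups apart, and -0.15 without homozygous replicate 2 (limma adjusted p = 0.220 and 0.728).

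Prkag3 held 66.7%, 60.7% and 67.9% of γ subunit TPM in the homozygous and 65.9%, 72.4% and 74.3% in the WT libraries. WT replicate 1 lay within the homozygous range. Group means were 65.1% ± 3.83 and 70.9% ± 4.42 (SD, n = 3 each, two-sided exact permutation p = 0.3). Prkag1 held the larger part of the remainder, 31.0% ± 4.23 and 24.8% ± 3.46 (exact permutation p = 0.2). Prkag2 held 3.86% ± 0.703 and 4.35% ± 0.964 (exact permutation p = 0.5).

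**Figure D2:**
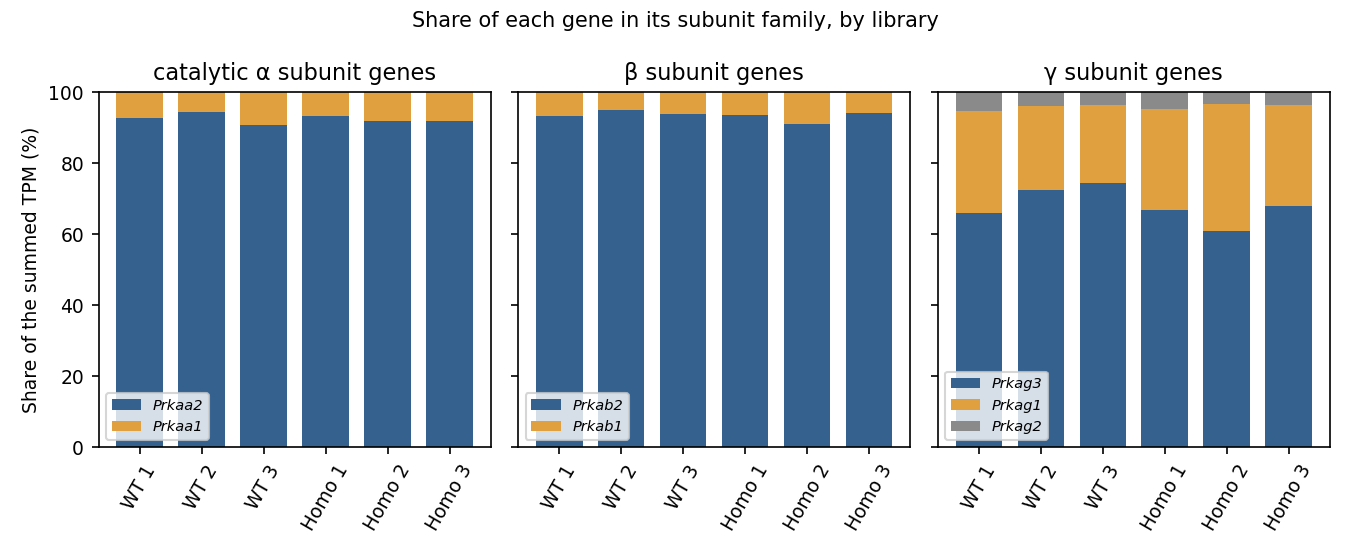
Share of each gene in the summed TPM of its subunit family, in percent, as stacked bars for the 6 libraries, with one panel each for the catalytic α, β and γ genes. Prkaa2 and Prkab2 take over 90% of their families in each library, while the Prkag3 share runs from 60.7% in homozygous replicate 2 to 74.3% in WT replicate 3.

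Transcripts of the 3 subunit families were not present in equal amounts. Catalytic genes summed to 34.1, 40.2 and 44.0 TPM in homozygous muscle, against 30.8, 37.9 and 17.9 TPM in WT muscle. The β genes summed to 87.9 to 112 TPM and 78.6 to 98.3 TPM, and the γ genes to 106 to 136 TPM and 111 to 154 TPM, in the homozygous and WT libraries in that order. The ratio of γ to catalytic transcripts was 3.98, 2.65 and 2.44 in the homozygous and 3.60, 3.48 and 8.61 in the WT libraries. WT replicate 3 stood apart with the highest ratio, and the groups overlapped (two-sided exact permutation p = 0.3). These are transcript ratios, and subunit protein was not measured.

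Of the upstream kinases, Stk11, the gene of LKB1, was far more abundant than Camkk2. Stk11 was at 88.3, 79.2 and 84.3 TPM in homozygous muscle, against 89.3, 86.0 and 89.8 TPM in WT muscle. This was the narrowest spread of the 9 genes in the WT group relative to its mean, 88.4 ± 2.07 TPM (SD, n = 3), against 83.9 ± 4.53 TPM in the homozygous group. The log2 fold change was -0.07 (SE 0.12, limma adjusted p = 0.672), with a 95% interval of -0.34 to 0.19. Camkk2 was at 1.51, 2.18 and 1.79 TPM in homozygous muscle, against 1.01, 1.76 and 1.35 TPM in WT muscle, about 59.7 to 116 estimated fragments per library. The groups overlapped and the log2 fold change was 0.26 (SE 0.18, limma adjusted p = 0.374). No row of Camkk2 reached the filter on low values as an isoform.

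The scale between libraries set the sign of some of these values. Quantile normalization and removal of the length trend brought the median of all genes to -0.0070 and -0.0048. Under quantile normalization Prkag2, Prkag3 and Stk11 were at -0.58, -0.53 and -0.28, with unadjusted p of 0.0325, 0.0318 and 0.0308 and a limma adjusted p of 0.555 for each. Of all genes, 4.34% were lower at an unadjusted p under 0.05 on that scale. The Stk11 groups did not overlap on that scale and were lower in the homozygous libraries, as for 7.34% of all genes. Prkab2, Prkag1 and Camkk2 turned from values above 0 to values below 0 under both scalings. No AMPK gene passed the adjusted threshold under any of the 15 alternatives.

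**Figure D3:**
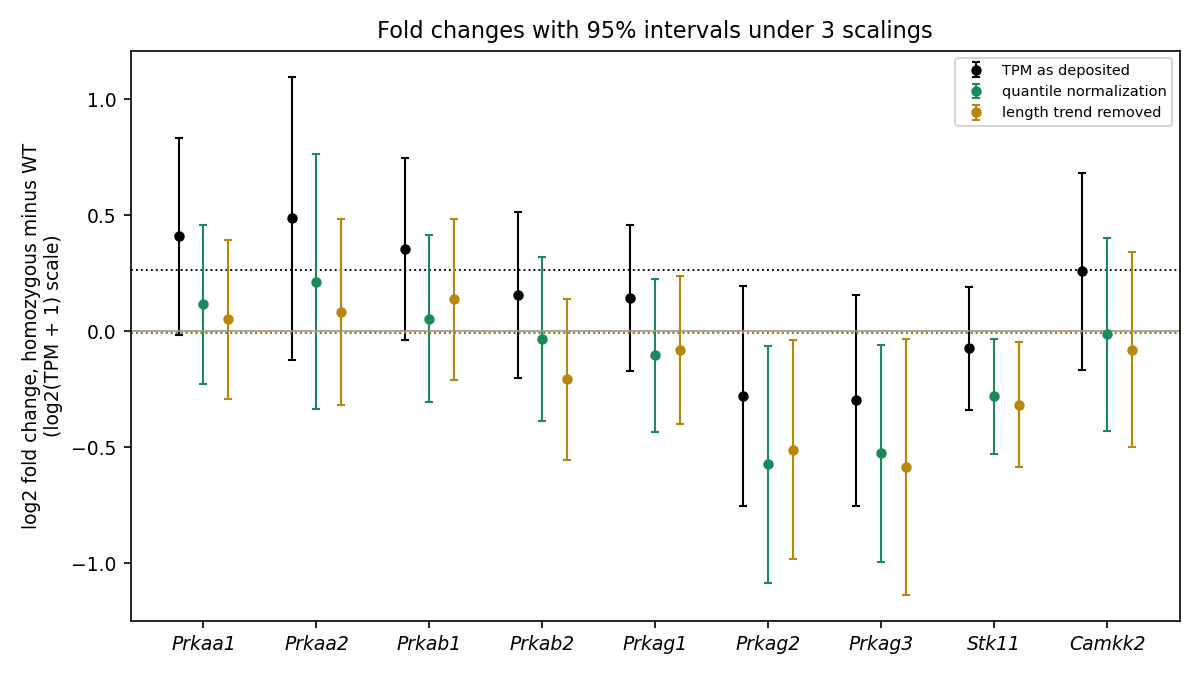
Log2 fold change, homozygous minus WT, on the log2(TPM + 1) scale for the 9 AMPK genes, with 95% intervals from limma. Black is TPM as deposited, green quantile normalization and ochre removal of the transcript length trend. Dotted lines in these colours are the medians of all genes on each scale, 0.26, -0.0070 and -0.0048 in that order. The values for Prkag2, Prkag3 and Stk11 are below 0 on all 3 scales, and Prkaa1, Prkaa2 and Prkab1 are above 0 on all 3.

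Shares of Stk11-201, Stk11-202 and Stk11-209 did not overlap between the groups, while the Stk11 total had a log2 fold change near 0. Of the tested transcripts of the set, Stk11-209 had the largest log2 fold change in size on the deposited scale. Stk11 lies at chr10:80115803-80130682 on the plus strand (GRCm38) and had 10 transcript rows. Its 4 annotated protein-coding transcripts carried most of the signal. Stk11-201 has 10 exons and 1308 coding nt. Stk11-202 begins inside the gene, and its coding sequence starts 378 coding nt downstream of that of Stk11-201. The first 60 coding bases of both are shown, with the start codon in capitals, because they show where each coding sequence starts. They lie at chr10:80116618-80116677 and chr10:80125483-80125542. The Stk11-202 bases also lie within a coding exon of Stk11-201, so they are shared coding bases.
Stk11-201: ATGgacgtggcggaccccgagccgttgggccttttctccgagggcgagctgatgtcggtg
Stk11-202: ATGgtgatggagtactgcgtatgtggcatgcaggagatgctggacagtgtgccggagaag
Stk11-209 is a transcript of 5 exons and 723 nt, and all 723 bases lie within exons of Stk11-201. What sets it apart is a junction that leaves out the first 54 nt of an exon, at chr10:80127904-80127957.
Stretch absent from Stk11-209: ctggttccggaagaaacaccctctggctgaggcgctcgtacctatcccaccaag
Stk11-210 ends in another last coding exon, of 119 nt at chr10:80128391-80128509, in place of the 191 nt at chr10:80129905-80130095 that end Stk11-201. Alternative carboxy-terminal forms of LKB1 are known. The exons are given in full, since the ends of the proteins differ there.
Stk11-201 last coding exon: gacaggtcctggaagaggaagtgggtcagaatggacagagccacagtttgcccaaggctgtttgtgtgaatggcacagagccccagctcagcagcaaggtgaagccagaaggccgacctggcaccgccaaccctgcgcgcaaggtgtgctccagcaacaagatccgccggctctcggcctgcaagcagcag
Stk11-210 last coding exon: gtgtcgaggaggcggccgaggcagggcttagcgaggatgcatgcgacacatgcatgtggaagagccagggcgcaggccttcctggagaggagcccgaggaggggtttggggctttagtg

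In the deposited values the full-length transcript Stk11-201 took a larger part of Stk11 in the homozygous libraries. It made up 47.0%, 48.8% and 45.3% of Stk11 TPM there and 35.6%, 35.8% and 26.6% in the WT libraries, and the groups did not overlap. Group means were 47.0% ± 1.75 and 32.7% ± 5.23 (SD, n = 3 each), with a two-sided exact permutation p of 0.1, the smallest this design gives. In TPM it was at 41.5, 38.7 and 38.2 in the homozygous and 31.8, 30.8 and 23.9 in the WT libraries. The limma log2 fold change was 0.45 (SE 0.15, unadjusted p = 0.0216, adjusted p = 0.287). It was 0.25 after quantile normalization, 0.18 after median centring, 0.19 with the length trend removed and 0.28 with the slow-fibre covariate, where the unadjusted limma p was 0.116, 0.200, 0.142 and 0.179. The groups did not overlap on the 3 rescaled measures.

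The shorter Stk11-202 and Stk11-209 had the opposite order. Shares within a gene sum to a fixed total, so these differences are not independent of that of Stk11-201. Stk11-201 has 2566 nt and Stk11-202 has 1474 nt, of which 1370 lie within exons of Stk11-201. The values of both therefore rest on how reads at shared exons were divided. Stk11-202 made up 26.2%, 26.1% and 24.4% of Stk11 TPM in the homozygous and 37.0%, 28.6% and 51.5% in the WT libraries. The 3 homozygous libraries were close together while the WT libraries were spread, with WT replicate 3 the highest. Without WT replicate 3 the difference of the means was -7.27 percentage points, against -13.5 with it. In the limma fit on TPM its log2 fold change was -0.62 (SE 0.23, unadjusted p = 0.0327, adjusted p = 0.297), and it was -0.30 with the slow-fibre covariate and -0.40 without WT replicate 3.

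Stk11-209 was at 0.739, 0 and 1.42 TPM in homozygous replicates 1, 2 and 3 and at 5.75, 7.78 and 8.35 TPM in WT replicates 1, 2 and 3. That came to about 7.71, 0 and 11.6 estimated fragments in the homozygous and 54.8, 66.1 and 75.7 in the WT libraries. Each WT library was above each homozygous library by a wide gap. Its limma log2 fold change was -2.35 (SE 0.35, unadjusted p = 0.000367, adjusted p = 0.141), and it was between -3.86 and -1.80 over 15 alternatives, with adjusted p from 0.119 to 0.770. As a share of Stk11 TPM it was 0.840% ± 0.841 in the homozygous and 8.26% ± 1.58 in the WT libraries (SD, n = 3 each, two-sided exact permutation p = 0.1), and the difference was -6.90 percentage points without WT replicate 3, against -7.42 with it. Because its bases are shared with Stk11-201, the value rests on how reads at the shared exons were divided, and reads across the junction were not examined here.

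Stk11-210, with the alternative last coding exon, made up 15.2%, 15.0% and 18.0% in the homozygous and 13.8%, 16.9% and 9.16% in the WT libraries, and the groups overlapped. Stk11-208, annotated for nonsense-mediated decay, was 1.28%, 1.75% and 0.878% in the homozygous and 0.863%, 0.697% and 0.375% in the WT libraries. Those ranges were apart by a narrow margin. Stk11-203, of the same annotated class, was at 6.35, 4.03 and 4.95 TPM against 5.19, 3.55 and 1.20 TPM and overlapped. Stk11-207, a retained-intron transcript, was listed at 0 in 1 library of each group.

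**Figure D4:**
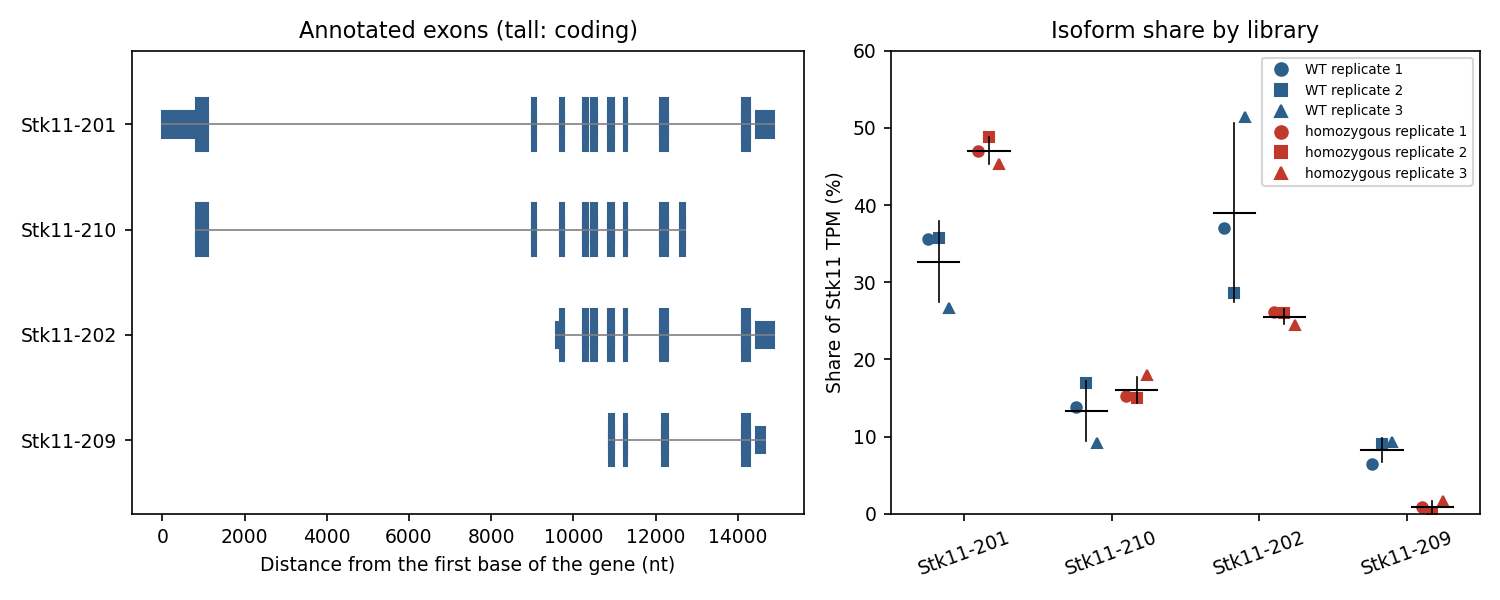
Left, annotated exons of 4 Stk11 transcripts against the distance from the first base of the gene in nt, with coding parts tall; right, the share of each in Stk11 TPM, in percent, by library, with group means and ± 1 SD (n = 3), WT in blue and homozygous in red. Homozygous libraries lie above all WT libraries for Stk11-201 and below them for Stk11-202 and Stk11-209, and the groups overlap for Stk11-210.

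Of the 55 transcript rows, 20 had a mean of at least 1 TPM in a group and 19 passed the filter and were tested. Of the 19, 0 passed an adjusted p under 0.05 in limma (background 0.0425% of 21165 isoforms). At an unadjusted p under 0.05, 1 was higher (background 14.2%) and 2 were lower (background 1.52%), and these were the 3 Stk11 transcripts above. Groups did not overlap for 2 that were higher (background 25.6%), Prkaa1-201 and Stk11-201, and for 4 that were lower (background 2.11%), Stk11-202, Stk11-209, Prkab1-201 and Prkag2-203. As shares of their gene, 1 of 15 tested transcripts in 4 genes was higher (background 10.2%) and 3 were lower (background 8.98%) without overlap. Stk11-208 and Prkag2-203 are not among the 15, since Stk11-208 did not pass the filter and Prkag2 had 1 tested transcript.

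Prkab1-201 and Prkab1-202 carry the same 810 coding nt and differ outside them. Prkab1-201 was at 1.03, 1.14 and 1.33 TPM in homozygous muscle, against 1.54, 1.54 and 2.96 TPM in WT muscle, while the Prkab1 total was higher on the mean in the homozygous group. Its share of Prkab1 was 13.9%, 14.4% and 21.1% against 23.2%, 31.7% and 60.9%. WT replicate 3 was the highest, and the difference of the means was -22.1 percentage points with it and -11.0 without it. These values rest on about 31.0 to 91.5 estimated fragments per library. The share of Prkab1-202 was 53.5%, 25.4% and 47.9% against 42.2%, 49.4% and 25.4%, with no separation.

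For Prkag2, the transcript Prkag2-203, with 978 coding nt, against 1698 in the long form Prkag2-201, was the main one. It was at 3.18, 1.87 and 1.92 TPM in homozygous muscle, against 3.43, 3.83 and 3.41 TPM in WT muscle, and its share was 50.3%, 52.8% and 50.0% against 56.7%, 73.3% and 61.1%. The groups did not overlap on either measure, and the log2 fold change was -0.48 (SE 0.22, limma adjusted p = 0.341). The long form was under 1 TPM on the mean in both groups.

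Prkag3 had 2 rows, Prkag3-204 and Prkag3-206, with identical values in each library. Prkag3-204 is annotated for nonsense-mediated decay and Prkag3-206 as protein-coding, so the decay-annotated part of Prkag3 cannot be read from these values. Their annotated sequences of 2832 nt are also identical, so the 2 rows cannot be told apart, and together they held 79.9% ± 2.17 of Prkag3 TPM in the homozygous and 81.1% ± 0.953 in the WT libraries (SD, n = 3 each). Of the rest, Prkag3-203, a transcript of 517 nt annotated for nonsense-mediated decay, held 14.1% ± 1.55 and 14.3% ± 0.799, and Prkag3-202 held 4.17% ± 1.99 and 3.95% ± 0.813. Prkab2 was carried almost entirely by Prkab2-201, 96.4% ± 0.567 and 98.2% ± 1.70. Its retained-intron transcripts Prkab2-203 and Prkab2-205 were each at most 2.43 TPM and were listed at 0 in WT replicate 3. Prkag1 had 1 row.

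Around the core set, 4 lists of AMPK pathway genes were read from the same fit. In each list 0 genes passed the adjusted threshold in limma, and 0 were lower at an unadjusted p under 0.05 (background 0.55%). Of the upstream partners and regulators, which include the LKB1 complex, AMPK phosphatases and sestrins, 17 of 19 were tested, 6 were higher at an unadjusted p under 0.05 (background 23.7%) and the median log2 fold change was 0.35. Of the AMPK-related kinases, which LKB1 also activates for the most part, 8 of 14 were tested, 4 were higher and the median was 0.40. Among AMPK substrates 36 of 36 were tested, 18 were higher and the median was 0.36. Of the genes of adenine nucleotide handling 13 of 15 were tested, 4 were higher and the median was 0.12. The median over all genes was 0.26. Groups did not overlap, with the homozygous libraries higher, for 9, 3, 23 and 4 genes of the lists in that order (background 34.7%). Without homozygous replicate 1, the numbers of higher genes at an unadjusted p under 0.05 were 8, 2, 12 and 2 (background 19.4%). They were 1, 2, 11 and 2 without homozygous replicate 2 (background 9.6%) and 3, 2, 11 and 4 without homozygous replicate 3 (background 12.1%). After quantile normalization 0, 0, 7 and 1 genes were higher at an unadjusted p under 0.05 (background 4.54%).

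Stradb, the gene of a pseudokinase partner of LKB1, was at 61.2, 72.0 and 70.7 TPM in homozygous muscle, against 49.6, 56.4 and 41.9 TPM in WT muscle. Map3k7, the gene of TAK1, was at 21.0, 20.6 and 19.2 against 15.8, 13.9 and 8.30 TPM. Both were without overlap, as were Ppm1a, a phosphatase (log2 fold change 0.47, SE 0.15), and Sesn3, a sestrin (0.64, SE 0.23). The adjusted p in limma was 0.168 to 0.174 for these 4. Among the related kinases, Sik3 was at 12.7, 13.9 and 12.0 against 9.99, 8.81 and 8.50 TPM (log2 fold change 0.46, SE 0.14). Mark2 and Mark3 were at 0.38 and 0.33 on the same scale without overlap, and Nuak1 was at 0.98 with overlapping groups.

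Tbc1d1, a Rab GTPase-activating protein that AMPK phosphorylates in the control of GLUT4 traffic, had the smallest unadjusted p of the 4 lists. It was at 24.3, 43.5 and 50.8 TPM in homozygous muscle, against 8.38, 10.5 and 17.4 TPM in WT muscle. Each homozygous library was above each WT library. The log2 fold change was 1.63 (SE 0.32, limma adjusted p = 0.168), between 1.29 and 2.04 over the 15 alternatives, and it passed the threshold only with array weights (limma adjusted p = 0.0396). After removal of the length trend the groups overlapped (log2 fold change 1.29, limma adjusted p = 0.586). Tbc1d4, its paralogue, was named after its values were seen. It was at 11.2, 7.25 and 8.21 TPM in homozygous muscle, against 20.5, 12.3 and 4.94 TPM in WT muscle, with overlapping groups (log2 fold change -0.29, limma adjusted p = 0.657). Without WT replicate 3 that value was -0.80 and the groups were apart, and without WT replicate 1 it was 0.13.

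Other substrates with a small unadjusted p were Crtc2, a CREB coactivator, and Ulk1, the kinase that starts autophagy. Ulk1 was at 28.3, 35.6 and 28.3 TPM against 19.2, 21.4 and 13.1 TPM. Crtc2 was at 12.6, 13.0 and 12.2 against 8.72, 8.47 and 8.82 TPM, with a narrow spread in each group. The log2 fold changes were 0.49 (Crtc2, SE 0.12) and 0.77 (Ulk1, SE 0.20), each at a limma adjusted p of 0.168. Of the nucleotide genes, Ampd2, an AMP deaminase, Nt5c1a, which dephosphorylates AMP, Adssl1, of the purine nucleotide cycle, and Ampd3 were higher without overlap, at 0.58, 1.01, 0.40 and 0.80. Their limma adjusted p was 0.168 to 0.189. Ampd1, a further AMP deaminase named after its values were seen, was far more abundant. It was at 619, 401 and 436 TPM in homozygous muscle, against 572, 410 and 1035 TPM in WT muscle. Its groups overlapped (log2 fold change -0.39, limma adjusted p = 0.448). Ampd2 and Ampd3 had homozygous means of 2.91 and 5.40 TPM. Of the 13 tested genes of this list, 9 had a log2 fold change above 0, against 9526 of all 11099 genes tested.

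**Figure D5:**
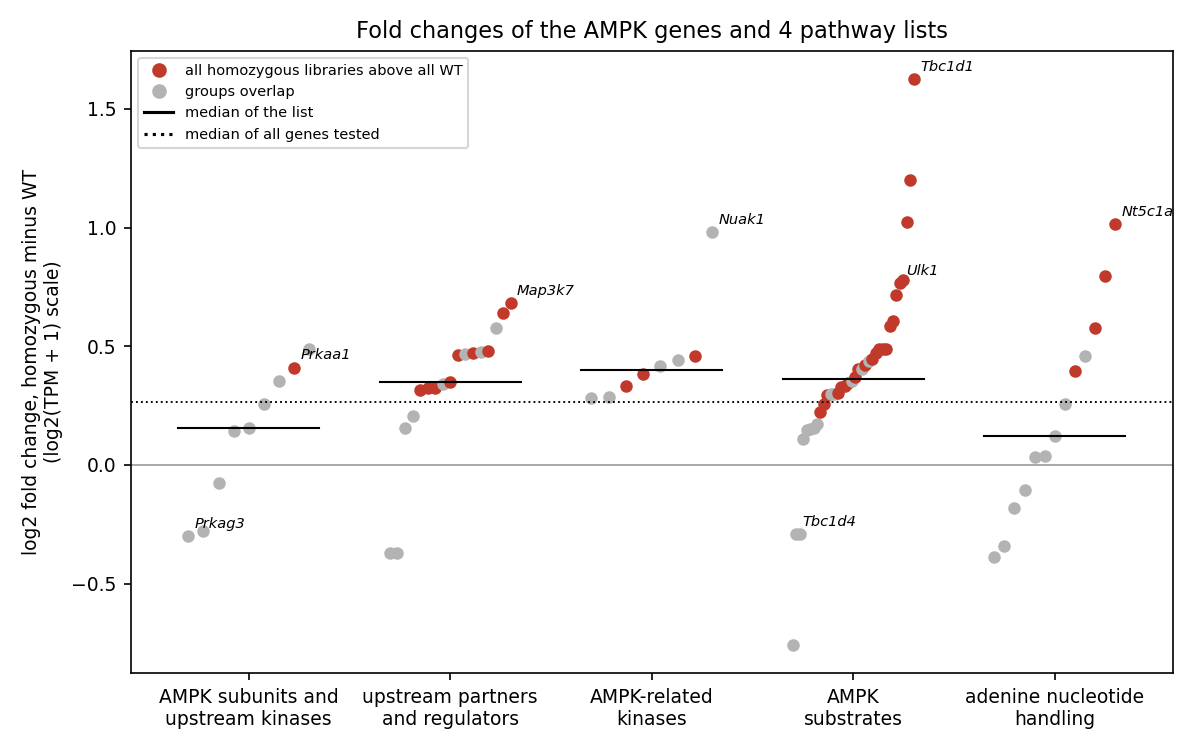
Log2 fold change, homozygous minus WT, on the log2(TPM + 1) scale for the 9 AMPK genes and the tested genes of 4 pathway lists; each point is a gene, red where all homozygous libraries lay above all WT libraries and grey where the groups overlapped, with list medians as solid lines and the median of all genes, 0.26, dotted. The list medians are 0.16, 0.35, 0.40, 0.36 and 0.12 from left to right, and Tbc1d1 is the highest point at 1.63.

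The genes most like the muscle-enriched subunits over the 6 libraries were listed as a description, by Pearson r of log2(TPM + 1) among 6842 genes with a mean of at least 5 TPM. For Prkaa2 these were G3bp2 (r = 0.999), Csgalnact2 (r = 0.998) and Rab6a (r = 0.997), each with its lowest value in WT replicate 3, as for Prkaa2. For Prkab2 they were Arhgef10l (r = 0.996), Fabp5 (r = 0.958) and Cldnd1 (r = 0.955). For Prkag3 they were Pabpc1 (r = 0.985), Napa (r = 0.982) and Gpd1 (r = 0.967), each with its highest value in WT replicate 3 and its lowest in homozygous replicate 2. The points share library composition, and with 6 libraries a few dominate such values.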

How the data were processed

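The authors deposited one table of TPM per Ensembl transcript, with 1 column per library, per the file headers. The submitters' processing notes name FastQC, Trimmomatic, HISAT2, kallisto and the build mm10, without roles or versions. The sources used here do not give the annotation release or any use of strand. All 6 columns matched a library by name, and 0 were left over. Replicates are separate mice.

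Since TPM holds no read depth, the spacing of low values of single-transcript genes of at least 1500 nt was used to estimate it. Per library 68.7% to 71.1% of 564 to 619 such values came out whole to a tolerance of 0.03, where chance gives 6%. The estimates serve only to judge precision.

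Values were summed per gene and tested as log2(TPM + 1) with limma 3.58.1 in R 4.3.3 (mean-variance trend, robust, genotype alone, two-sided, Benjamini-Hochberg over all features, threshold 0.05). Features reaching 1 TPM in 3 or more libraries entered, 11099 genes and 21165 isoforms. Fold changes understate the change of low genes. Shares were compared with exact permutation tests over libraries (Python 3.11.15, scipy 1.17.1). On simulated data with 200 of the 11099 genes changed, the gene comparison recovered 0%, 31.5% and 93% of genes changed by 0.5, 1 and 2 on the log2 scale, with 0, 3 and 3 false calls. The simulation drew noise gene by gene, with equal numbers of raised and lowered genes. It held no shift shared by the genes of a library, so its rates may not hold for these libraries. Lengths, positions and sequences came from GENCODE M21 on GRCm38, which may not be the authors' release; all 55 member rows matched by identifier, 54 with the version. On the opposite strand 8 annotated genes overlap 6 of the 9 members, and reads from these cannot be told apart if strand was not used.

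Named were the 9 members, their isoforms with a mean of at least 1 TPM in a group, the 4 genes with the smallest p in each of 4 pathway lists, the 3 genes most like Prkaa2, Prkab2 and Prkag3, Nr3c1 and marker genes; a few items are not reported here. Members and lists were chosen with earlier results of these data known. Alternatives were quantile normalization, median centring, mitochondrial transcripts left out, no filter, a pseudocount of 0.1, array weights, a slow-fibre covariate, each library left out and a replicate block. Shares and ratios were also recomputed without isoforms under a mean of 0.1 TPM. Removal of a length trend (loess, span 0.5), the fits for Tbc1d1 and Tbc1d4, and the alternatives for Stk11 shares were added after seeing the data.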

Additional observations from a re-analysis of the deposited data

How the results depend on the processing

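No AMPK gene passed the adjusted threshold under any alternative run. Genes past the threshold numbered 0, and 810 with array weights, which gave WT replicate 3 a weight of 0.199; leaving out single libraries gave 0 to 2 (2 without WT replicate 1). Isoforms past it numbered 9, against 3 after quantile normalization, 5 after median centring, 5 without mitochondrial transcripts, 0 with no filter, 4 with a pseudocount of 0.1, 14 with array weights, 0 with the slow-fibre covariate, 3 with the length trend removed, and 0 to 38 without single libraries (38 without WT replicate 1). AMPK genes whose groups did not overlap numbered 1, against 0 without mitochondrial transcripts and 1 to 6 without single libraries (6 without homozygous replicate 1). On the deposited scale the 1 gene was Prkaa1, higher in the homozygous libraries. After quantile normalization, median centring and length-trend removal it was Stk11, lower in those libraries, and Prkaa1 overlapped. The count without overlap was not run with weights, covariate or block, which leave the values as they are. Same-numbered libraries did not deviate together (r = -0.07, 0.06 and -0.01 across genes). With the replicate number as a block, 0 genes and 0 isoforms passed. The Prkag3 share differed by -5.79 percentage points (exact sign-flip test over the 3 same-numbered pairs, p = 0.5). The smallest p that test can give is larger than that of the permutation test used for the shares above. The Prkaa2 share difference lay between -1.11 and 0.612 percentage points without single libraries (0.612 without WT replicate 2), and that of Prkaa1 between -0.612 and 1.11.

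Signs turned for several values near 0. After quantile normalization, median centring and length-trend removal in that order, log2 fold changes were -0.033, -0.14 and -0.21 for Prkab2, -0.10, -0.16 and -0.080 for Prkag1, -0.013, -0.043 and -0.079 for Camkk2, -0.068, -0.14 and -0.20 for Prkab2-201, -0.045, -0.13 and -0.077 for Prkag1-201 and -0.20, -0.18 and -0.13 for Stk11-207; Stk11-210 was at -0.031 and -0.050 under the first 2. With the slow-fibre covariate Prkag3 was at 0.083, Prkag3-203 at 0.084, Prkag3-204 and Prkag3-206 at 0.090 and Stk11-207 at -0.14. The covariate did not overlap between the genotypes, so fits with it cannot tell fibre type from genotype. Without single libraries, Tbc1d4 ranged from -0.80 to 0.13, Prkag3-202 from -0.40 to 0.030 and Stk11-207 from -0.32 to 0.55. Share differences ranged from -0.885 to 0.0623 percentage points for Prkag2, -3.57 to 11.6 for Prkab1-202, -0.871 to 1.07 for Prkag3-202, -0.887 to 0.654 for Prkag3-203 and -0.692 to 1.15 for Stk11-207. Of all recomputed values 739 kept direction and call or stayed within the spread, 53 moved, 1 gained a call and 40 turned. The cause was not tested. With 3 libraries a group the simulated fits recovered 31.5% of true changes of 1 (log2) on gene sums. The part of depth in the calls of isoforms with few estimated fragments was not tested.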
